A study of Homo sapiens with 8 samples.

Results

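The genes described here are those of the cytosolic and the mitochondrial ribosomal proteins. They are the protein-coding genes outside chromosome Y whose symbols begin with RPL or RPS, RPLP or RPSA (84 genes, cytosolic), or with MRPL or MRPS (78 genes, mitochondrial), 162 of the 60708 genes in the count table. Of these, 82 cytosolic and 77 mitochondrial genes had enough counts to be tested. RPL10L, RPL3L and MRPL53 did not. The rule used names and gene type only, and no measured value.

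Polyadenylated RNA was sequenced from HS578T, an established line of basal, mesenchymal breast carcinoma cells. Cells received 25 µg of a plasmid, either one coding for green fluorescent protein (named Mock) or one coding for heat shock factor 2, a stress-related transcription factor (named HSF2oe). After 24 h, each received assay medium for 24 h, either alone (control) or containing TGF-β1 at 10 ng/ml, which drives mesenchymal gene expression in many epithelial tumour cells. The 4 groups are thus Mock control, Mock TGF-β, HSF2oe control and HSF2oe TGF-β, each with 2 biological replicates. All cells were transfected, so no group shows the line without a plasmid, and transfected and untransfected cells of a dish were sequenced together. HSF2 had 5.4 to 8.36 CPM (counts scaled to a common library size) in the 4 Mock libraries and 489 to 937 in the 4 HSF2oe libraries, with no overlap. Total counts per library ran from 17427645 to 34336107. The summed level of 10 basal and mesenchymal markers was 38800 to 44500 CPM in Mock control and 66600 to 74700 CPM in Mock TGF-β. In HSF2oe cells it was 37700 to 38000 CPM in control medium and 51700 to 54600 CPM with TGF-β. These markers did not move together. In Mock cells the log2 changes with TGF-β were 1.18 (CDH2), 0.93 (SPARC), 0.87 (FN1), 0.60 (ZEB1), 0.25 (CAV2) and 0.14 (VIM). For the others they were -0.03 (AXL), -0.04 (CD44), -0.47 (TWIST2) and -0.53 (CAV1). The 10 luminal breast epithelial markers, 6 of them tested, summed to 213 to 307 CPM, with PGR at 0. The 10 blood and endothelial markers together stayed at or below 7.51 CPM, with CD3E, HBB and HBA1 at 0.

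A ribosome is built from a large and a small subunit, each a shell of proteins around ribosomal RNA. The cytosolic ribosome translates nuclear mRNAs, and its proteins are made in matched amounts. Many of their mRNAs start with a run of pyrimidines, the 5′ terminal oligopyrimidine (TOP) tract, through which the kinase complex mTORC1 and the protein LARP1 control their translation and stability. The mitochondrial ribosome translates the few mRNAs of the mitochondrial genome. All of its proteins are encoded in the nucleus and imported, and many have no counterpart in bacteria.

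The start sites of both sets are shown first, because many cytosolic members carry the TOP tract and few mitochondrial members do. Each line gives 10 bases before the annotated start and 20 bases from it, 5′ to 3′ (RefSeq, GRCh38.p14). Capitals mark the start base and, where it is a pyrimidine, the pyrimidine run that it opens. The genes are RPL13A (chr19:49487598-49487627, plus strand) and RPS6 (chr9:19380217-19380246, minus strand), 2 abundant cytosolic members, RPL22 (chr1:6199576-6199605, minus) and its paralogue RPL22L1 (chr3:170870176-170870205, minus), RPL7L1 (chr6:42879606-42879635, plus), RPS27L (chr15:63157458-63157487, minus), and the mitochondrial members MRPS6 (chr21:34073568-34073597, plus), MRPS30 (chr5:44808937-44808966, plus) and MRPL44 (chr2:223957453-223957482, plus).
RPL13A: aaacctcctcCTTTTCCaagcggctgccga
RPS6: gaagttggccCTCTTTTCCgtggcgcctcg
RPL22: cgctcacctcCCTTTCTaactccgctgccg
RPL22L1: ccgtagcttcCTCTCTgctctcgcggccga
RPL7L1: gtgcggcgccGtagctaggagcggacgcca
RPS27L: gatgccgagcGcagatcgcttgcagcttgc
MRPS6: ctcggaccgtGctttcgccgcctgggagcc
MRPS30: ctctgggtccGgaatcgcgggcaaagatgg
MRPL44: ccatcgttttCTCTCgtgcaatggcgtccg

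The table of RefSeq promoters held 67 cytosolic and 69 mitochondrial members (the first start listed per gene was used). A start base C followed by pyrimidines, in a run of at least 5, was found at 43 of 67 cytosolic starts (64.2%), at 5 of 69 mitochondrial starts (7.25%) and at 4.04% of all 27305 promoters. The 5 mitochondrial genes were MRPL44, MRPL45, MRPL53, MRPS27 and MRPS33. RPL22L1 carried the tract like its partner RPL22, whereas RPS27L and RPL7L1 did not at these annotated starts. In the 300 bases from 250 before to 50 after the start, searched on both strands and without regard to overlap between motifs, CGGAAG (the core recognised by ETS factors such as GABPA) occurred in 61.2% of cytosolic, 53.6% of mitochondrial and 19.9% of all promoters. The extended motif of the factor YY1 occurred in 10 mitochondrial promoters (14.5%), MRPS30, MRPL50 and MRPS24 among them, in no cytosolic promoter and in 0.916% of all. CACGTG, the E-box, occurred in 5.97%, 8.7% and 7.43%. A heat shock element of inverted GAA repeats, the motif heat shock factors bind, was found in 2 members, MRPL48 and MRPL51 (2.9% of the mitochondrial promoters, against 0.487% of all). These matches describe letters in the window, not binding.

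Per length, the cytosolic set stood well above the mitochondrial set. Levels are CPM scaled by edgeR's trimmed mean of M values (TMM) and divided by exonic length in kilobases, as means of all 8 libraries. The tested cytosolic members had a median of 95.2 CPM per kb (range 0.483 to 769). The tested mitochondrial members had a median of 12.2 CPM per kb (range 0.639 to 70.3). RPL8, RPS12 and RPS18 were the highest cytosolic genes, at 769, 439 and 414 CPM per kb. MRPL41, MRPL51 and MRPL37 led the mitochondrial set at 70.3, 46.3 and 45.4 CPM per kb. Among the lowest tested cytosolic members were RPL36A at 0.483 and RPS27L at 4.07 CPM per kb, and MRPL46 at 0.639 and MRPL42 at 1.15 were the lowest mitochondrial ones. Reads that fell on more than 1 gene or place were not counted and strand was not used, and the part of this in low levels was not tested. Of the 162 genes, 25 shared over 20% of their exonic bases with another gene and 74 shared none. MRPL53 shared 99.4%, MRPL12 69.5%, MRPL9 36.0%, MRPS18C 40.2%, MRPS24 23.3% and RPL36A 22.5%. In addition 1301 annotated pseudogenes carry names of 78 cytosolic members and 79 carry names of mitochondrial members. They held 0.0397% to 0.055% of the counts (cytosolic) against 2.29% to 3.07% for the cytosolic genes themselves. The 3 untested genes had 1 to 6 counts (RPL3L, the muscle paralogue of RPL3), 0 to 2 counts (RPL10L, a testis paralogue) and 0 to 2 counts (MRPL53) per library, around the limit of 3 counts that a count of 0 allows.

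**Figure D1:**
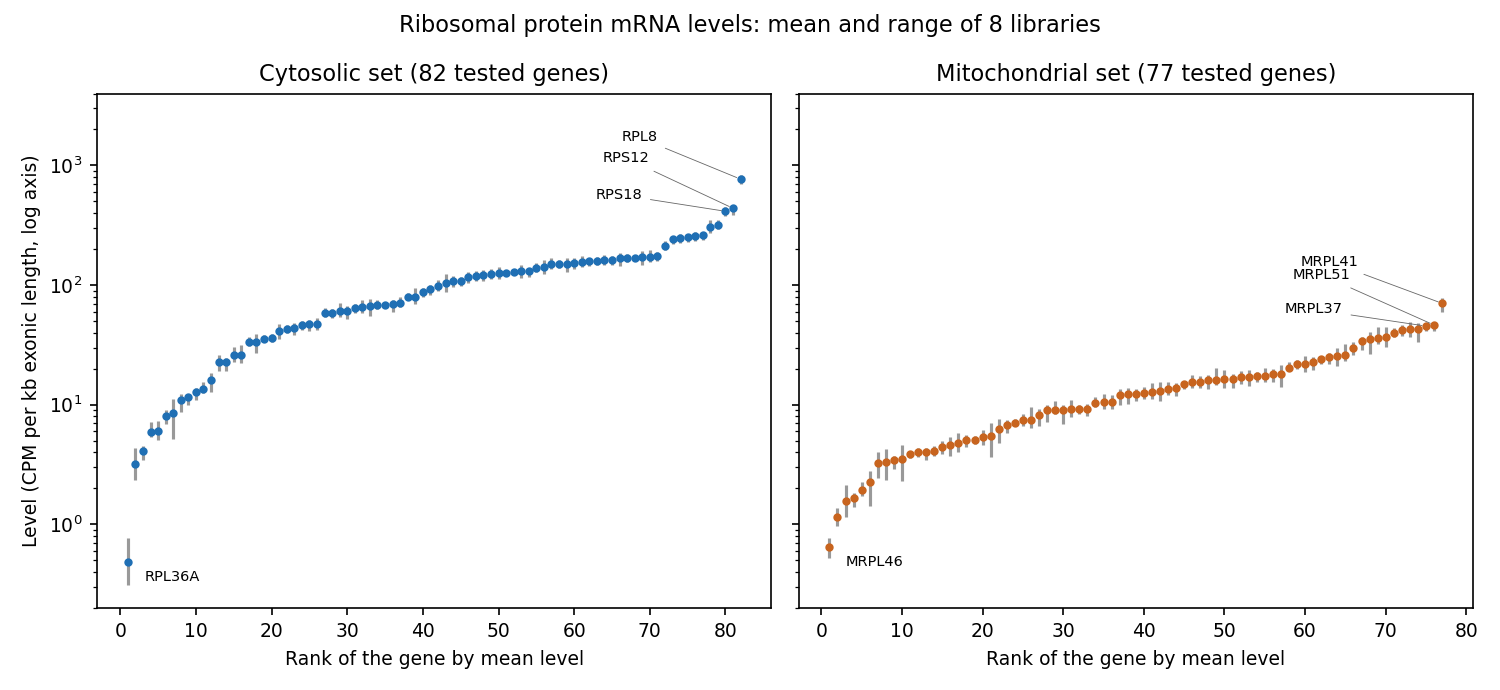
Level of each tested gene in CPM per kilobase of exonic length (vertical log axis) against its rank within the set (horizontal axis). Points are means and grey bars the range of the 8 libraries. Most of the cytosolic set lies above the mitochondrial median of 12.2 CPM per kb, and RPL36A lies lowest in its set at 0.483.

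Summed over each set, the cytosolic genes took 2.29% to 3.07% and the mitochondrial genes 0.198% to 0.294% of all counts. Summed cytosolic levels (replicates 1 and 2) were 29059 and 25960 CPM for Mock control, 29906 and 26763 CPM for Mock TGF-β, 25603 and 27276 CPM for HSF2oe control, and 29245 and 29096 CPM for HSF2oe TGF-β. The Mock libraries of each group lay further apart from each other than the 4 group means did. Summed mitochondrial levels were 2611 and 2429 CPM, 2490 and 2316 CPM, 2510 and 2655 CPM, and 2713 and 2700 CPM in the same order. Here the HSF2oe TGF-β libraries were the highest, and both lay above every Mock library and both HSF2oe control libraries. The spread within groups was shared across members. Replicate 1 of Mock control exceeded replicate 2 for 77 of 82 cytosolic genes (median log2 ratio 0.161), as did replicate 1 of Mock TGF-β for 76 of 82 (0.149). In HSF2oe control the order was turned, with replicate 1 higher for 5 of 82 (median -0.0952). In HSF2oe TGF-β it was higher for 40 of 82. The part of this shared shift in the comparisons below was not tested.

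The ratio of summed cytosolic to summed mitochondrial counts does not depend on how libraries are scaled, and its replicates lay close together. It was 11.1 and 10.7 for Mock control, 12.0 and 11.6 for Mock TGF-β, 10.2 and 10.3 for HSF2oe control, and 10.8 and 10.8 for HSF2oe TGF-β. Within each plasmid, both TGF-β libraries lay above both control libraries. In TGF-β medium, both HSF2oe libraries lay below both Mock libraries, and the same held in control medium. The order of the group means was the same with pseudogene counts added to their parents, with only the members sharing up to 20% of their exonic bases, and without the 10 most abundant genes of each set. In the last case the ratios were 10.9 and 10.4, 11.7 and 11.2, 9.93 and 9.98, and 10.4 and 10.5. No p-value is given, because a sum over chosen genes was not tested.

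**Figure D2:**
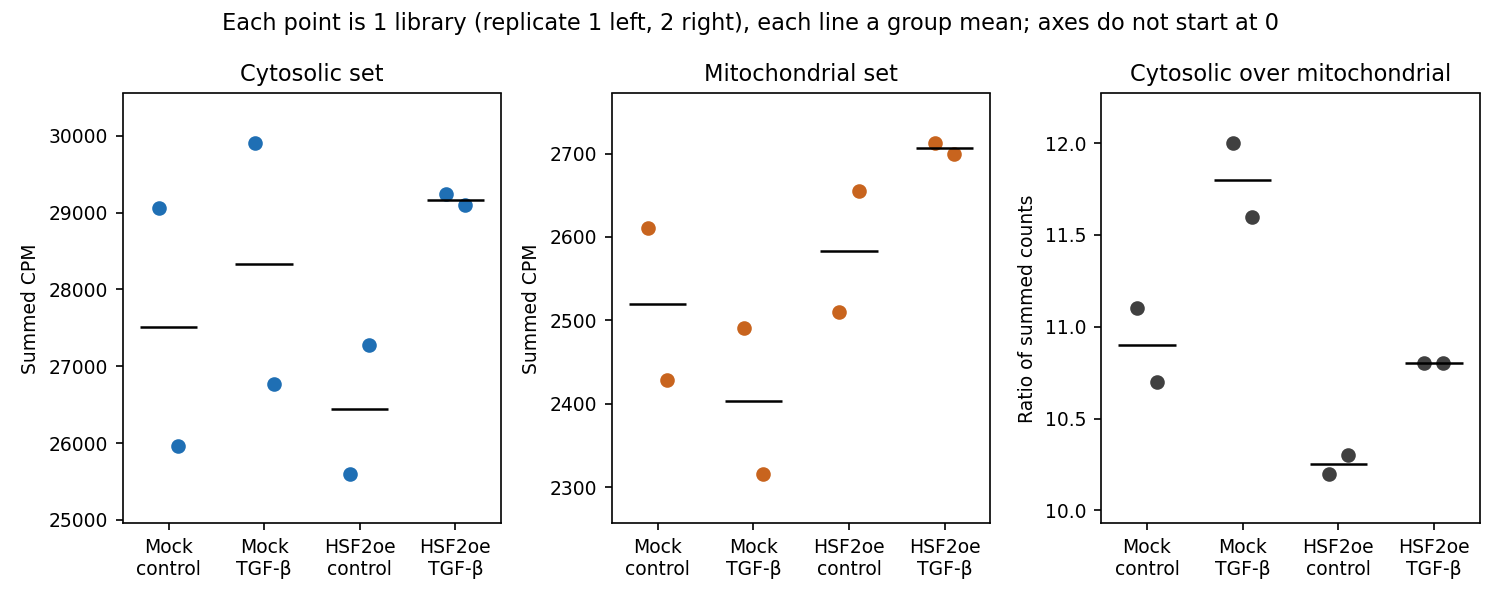
Summed levels of the cytosolic and mitochondrial sets in CPM, and the ratio of their summed counts, by group (horizontal axis). Each point is 1 library and each line a group mean. The vertical axes do not start at 0. The ratio runs from 10.2 in HSF2oe control to 12.0 in Mock TGF-β, and the values of Mock control (11.1 and 10.7) and HSF2oe TGF-β (10.8 and 10.8) overlap.

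The first comparison asked what TGF-β changed in Mock cells. Here 2 members passed the threshold (edgeR's quasi-likelihood test, Benjamini-Hochberg adjusted p under 0.05 over 16008 genes), both of the small mitochondrial subunit and both lower. No cytosolic gene passed (1 of 82 at an unadjusted p under 0.05), against 13.8% of all genes tested. The mitochondrial share, 2 of 77, was 2.6%, where 7.32% of all genes were called higher and 6.5% lower. MRPS6, the mitochondrial form of bacterial protein S6 (chromosome 21, 34073224 to 34143034, plus strand), had 19.3 and 19.2 CPM under control medium and 10.8 and 9.79 CPM under TGF-β. Both treated libraries lay well below both controls. MRPS6 fell by 0.90 on the log2 scale (SE 0.14, edgeR adjusted p 0.000603). It shares a first exon with SLC5A3, a myo-inositol transporter gene, which had a log2 change of -0.48 (edgeR adjusted p 0.167). In all, 9.48% of the MRPS6 exonic bases are shared with other genes. MRPS24, the counterpart of bacterial S3, had 10.7 and 8.77 CPM in control and 6.06 and 6.25 CPM with TGF-β. It fell by 0.66 (SE 0.17, edgeR adjusted p 0.0208). The MRPS24 call was lost when Mock control replicate 1 (adjusted p 0.165), Mock TGF-β replicate 1 (0.0845) or Mock TGF-β replicate 2 (0.0981) was left out.

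The other members had small values in Mock cells. Over each whole set, the median log2 change was 0.04 for the cytosolic and -0.09 for the mitochondrial set, against a value near 0 for all genes. Both TGF-β libraries lay above both controls for 13 cytosolic (15.9%) and 9 mitochondrial genes (11.7%) and below for 2 (2.44%) and 25 (32.5%), where all genes gave 25.7% above and 26.9% below. Of the 82 cytosolic members, 80 had a 95% interval within 1.5-fold of no change. RPLP0, the stalk protein often used as a reference, changed by 0.04 (SE 0.11), RPS6, the S6 kinase substrate, by 0.03 (SE 0.10), and RPL13A by 0.00 (SE 0.11). RPL5 and RPL11, which with 5S ribosomal RNA bind the p53 regulator MDM2, had changes of 0.04 and 0.09. With library totals alone in place of TMM factors, the median of all genes shifted to -0.27, that of the cytosolic set to -0.22 and that of the mitochondrial set to -0.35. Relative to all genes the cytosolic set thus stood 0.05 higher and the mitochondrial set 0.08 lower under either scaling, while the sign of the cytosolic median itself flipped.

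In HSF2oe cells, MRPS6 was the 1 member called with TGF-β. It had 18.2 and 19.7 CPM under control medium and 13.3 and 10.8 CPM under TGF-β, without overlap. It fell by 0.65 (SE 0.13, edgeR adjusted p 0.00713). The call was lost without HSF2oe control replicate 2 (adjusted p 0.0617) or without HSF2oe TGF-β replicate 2 (0.0859). No cytosolic gene passed (4 of 82 at an unadjusted p under 0.05), and 1 of 77 mitochondrial genes did, against 8.26% of all genes (4.45% higher, 3.82% lower). Averaged over both plasmids, MRPS6 fell by 0.78 (SE 0.09, edgeR adjusted p 5.68e-05), a call kept under each alternative run. SLC5A3 averaged -0.46 (edgeR adjusted p 0.0365). MRPS24 in HSF2oe cells had 8.99 and 11.1 CPM in control and 8.47 and 8.78 CPM with TGF-β, a change of -0.22 (SE 0.16, edgeR adjusted p 0.503).

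The cytosolic members nonetheless took values on the same side in HSF2oe cells. In 69 of 82 (84.1%), both HSF2oe TGF-β libraries lay above both HSF2oe control libraries, and none lay below. Among all genes 24.1% lay wholly above and 25.7% wholly below. The median cytosolic change was 0.14, with 80 of 82 positive. The values share their libraries: the median log2 ratio of replicate 1 to replicate 2 over the same genes was -0.0952 in HSF2oe control and -0.00233 in HSF2oe TGF-β. Members with a TOP tract at the first listed start had a median of 0.15 and members without a tract there a median of 0.13. A tract at another start of the same gene was not counted. The 77 mitochondrial genes had a median of 0.08, with 30 wholly above and 10 wholly below. Under library totals alone the cytosolic median was -0.02 and the median of all genes -0.17, which keeps the cytosolic set 0.15 above all genes. Averaged over both plasmids the TGF-β change of the cytosolic set had a median of 0.10 with no gene past the threshold (8 at an unadjusted p under 0.05, RPL27A, RPL34 and RPL24 the smallest), against 20.2% of all genes (10.1% higher, 10.0% lower). Without Mock control replicate 1 the cytosolic count was 1. In 5 of 82 cytosolic and 6 of 77 mitochondrial genes all 4 TGF-β libraries lay above all 4 control libraries, and in 0 and 2 below, where all genes gave 6.45% and 6.65%.

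With TGF-β averaged over both plasmids, 20.2% of all genes were called (10.1% higher, 10.0% lower). Of the mitochondrial genes 5 of 77 passed this test, a smaller share. Beside MRPS6 and MRPS24 (-0.44, SE 0.12, edgeR adjusted p 0.0162) these were 3 rises: MRPS36 by 0.38 (SE 0.11), MRPL2 by 0.27 (SE 0.09) and MRPL52 by 0.22 (SE 0.07). MRPS36 bears a ribosomal name but is known as a subunit of the 2-oxoglutarate dehydrogenase complex. The edgeR adjusted p values of these 3 were 0.0256, 0.0426 and 0.0398, and the calls were lost in 5, 7 and 7 of the 8 fits that left out 1 library. The count of 5 became 2 without either Mock control library, either HSF2oe control library or HSF2oe TGF-β replicate 1, and 3 without Mock TGF-β replicate 1 or HSF2oe TGF-β replicate 2.

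**Figure D3:**
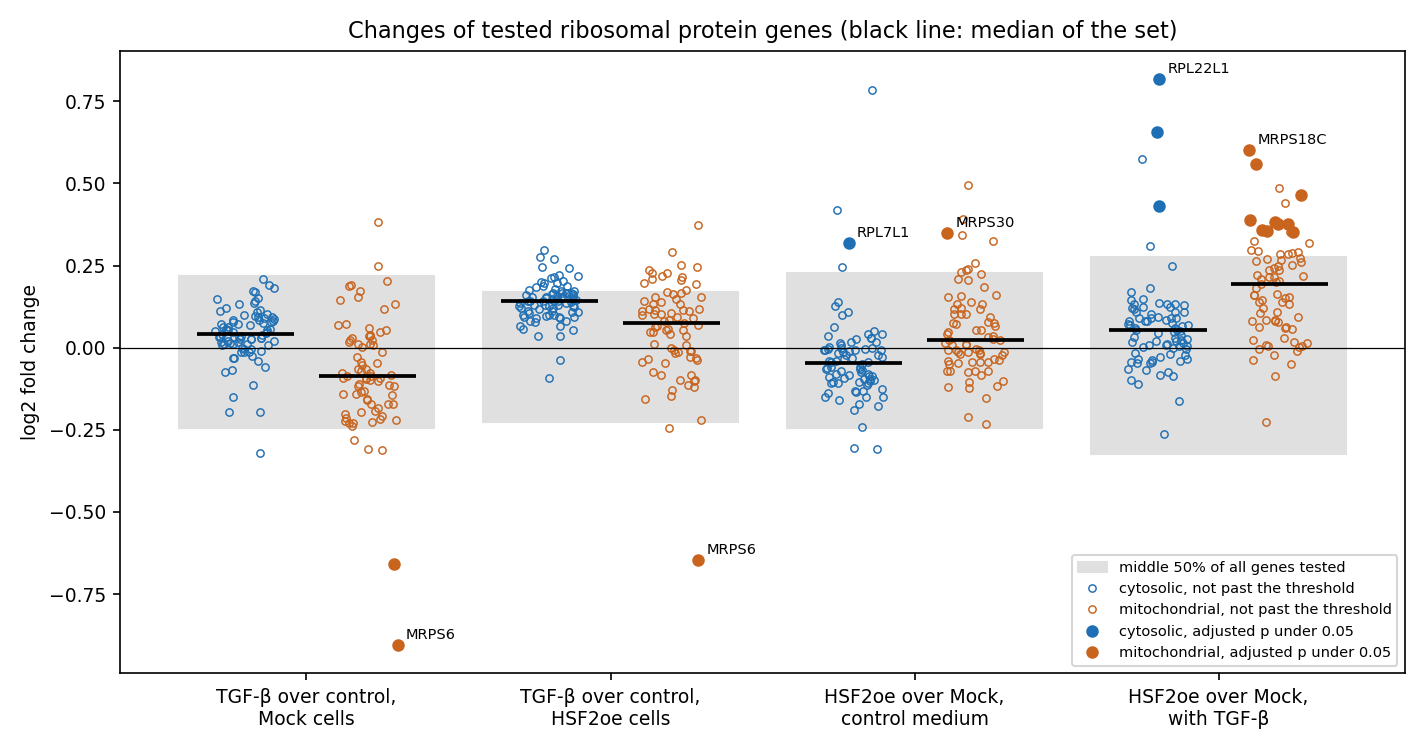
log2 fold change (vertical axis) of each tested member in the 4 single comparisons (horizontal axis). Filled points passed the adjusted p threshold of 0.05, open points did not, black lines are set medians and grey boxes the middle 50% of all genes. MRPS6 lies lowest at -0.90 in Mock cells, and the filled points of HSF2oe over Mock with TGF-β all lie above 0.

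HSF2oe was then compared with Mock in control medium. Only 1 gene of each set passed, RPL7L1 and MRPS30, both higher, against 12.1% of all genes (4.88% higher, 7.22% lower). RPL7L1, which resembles the yeast large-subunit assembly factor Rlp7 and is a paralogue of RPL7 (chromosome 6, 42879616 to 42889925, plus strand), had 177 and 174 CPM in Mock control and 211 and 227 CPM in HSF2oe control. It rose by 0.32 (SE 0.09, edgeR adjusted p 0.0410). MRPS30 (chromosome 5, 44808947 to 44820428, plus strand), which sits in the large mitochondrial subunit despite its name, had 29.4 and 33.5 CPM in Mock control and 41.6 and 38.6 CPM in HSF2oe control. It rose by 0.35 (SE 0.10, edgeR adjusted p 0.0403). Neither gene's groups overlapped, but both adjusted p values lay just under the threshold. The RPL7L1 call was lost in each of the 8 fits without 1 library (highest adjusted p 0.214). The MRPS30 call was lost in 6 of 8 such fits and with DESeq2 (0.0521). The set medians were -0.05 (cytosolic) and 0.02 (mitochondrial), and with library totals alone 0.04 and 0.11, beside 0.09 for all genes. Both HSF2oe libraries lay above both Mock libraries for 5 cytosolic and 20 mitochondrial genes and below for 11 and 7, where all genes gave 28.5% and 29.0%.

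With TGF-β in both arms, the difference between HSF2oe and Mock was widest. Here 10 of 77 mitochondrial genes (13.0%) and 3 of 82 cytosolic genes (3.66%) rose and none fell, against 9.6% of all genes called higher and 11.9% called lower. With library totals alone, which moved the median of all genes to 0.19, the counts were 43 mitochondrial and 17 cytosolic genes. The share of all genes called under that scaling is not reported here. With TMM factors the mitochondrial share of rises was close to that of all genes. Among the mitochondrial genes 70 of 77 had positive values, and the median change was 0.19, against a value near 0 for all genes and 0.05 for the cytosolic set. Both HSF2oe libraries lay above both Mock libraries for 49 of 77 mitochondrial genes (63.6%) and below for 1, where all genes gave 29.7% and 30.2%. For cytosolic genes the counts were 26 and 5 of 82. The 45 mitochondrial genes with a bacterial counterpart had 5 rises and a median of 0.15, the 32 others 5 rises and a median of 0.22. By symbol, 5 rises were in the large and 5 in the small subunit.

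Of the mitochondrial rises, MRPS18C was the largest. It is 1 of 3 human versions of bacterial protein S18, with 5.6 and 5.66 CPM in Mock TGF-β against 8.28 and 8.83 CPM in HSF2oe TGF-β. It rose by 0.60 (SE 0.18, edgeR adjusted p 0.0280). The other versions, MRPS18A and MRPS18B, had changes of 0.25 (SE 0.12) and 0.11 (SE 0.09) that did not pass. MRPL50, a large-subunit protein without bacterial counterpart (chromosome 9, 101387633 to 101398618, minus strand), had 9.51 and 8.07 CPM in Mock TGF-β and 13.3 and 12.5 CPM in HSF2oe TGF-β. It rose by 0.56 (SE 0.14, edgeR adjusted p 0.0150). MRPL9, the counterpart of bacterial L9, had 27.8 and 24.5 CPM against 34.8 and 37.2 CPM and rose by 0.46 (SE 0.12, edgeR adjusted p 0.0125). In these 3 genes both HSF2oe libraries exceeded both Mock libraries. MRPS18C and MRPL9 share over 20% of their exonic bases with another gene, and the part of this in their changes was not tested. MRPS34, MRPS2 (the counterpart of S2), MRPL15, MRPL27, MRPS35, MRPS30 and MRPL47 rose by 0.35 to 0.39. MRPL12, a protein of the ribosomal stalk that also binds the mitochondrial RNA polymerase, had 0.28 (SE 0.13, edgeR adjusted p 0.146), MRPL41 had 0.06 and MRPS12 0.14. The count of 10 rested on the single libraries: it was 6 without Mock TGF-β replicate 1, 1 without Mock TGF-β replicate 2, 2 without HSF2oe TGF-β replicate 1 and 4 without HSF2oe TGF-β replicate 2.

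The 3 cytosolic rises included RPL22L1 and RPL7L1. RPL22L1 (chromosome 3, 170864875 to 170870208, minus strand), the paralogue of RPL22 that also takes part in splicing control, had 10.6 and 13.8 CPM in Mock TGF-β and 22.9 and 20.3 CPM in HSF2oe TGF-β. It rose by 0.82 (SE 0.14, edgeR adjusted p 0.00137), the largest change of any member here, and the call was kept under each alternative run. RPL22L1 shares no exonic base with another gene and has no annotated pseudogene. RPL7L1 had 187 and 174 CPM in Mock TGF-β against 240 and 246 CPM and rose by 0.43 (SE 0.09, edgeR adjusted p 0.00582). Without Mock TGF-β replicate 2, 1 of the 3 calls remained.

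Averaged over both media, 5 of 82 cytosolic and 13 of 77 mitochondrial genes rose with HSF2oe and none fell. Among all genes 15.2% were called higher and 17.3% lower. The mitochondrial share of rises was close to that of all genes, and the cytosolic share lay below it. With library totals alone, where the median of all genes was 0.14, the counts were 17 cytosolic and 44 mitochondrial genes. The share of all genes called under that scaling is not reported here either. The cytosolic genes included RPL22L1 (0.62, SE 0.10, edgeR adjusted p 0.000352), RPL36A (0.68, SE 0.23), RPL7L1 (0.37, SE 0.07) and RPL22 (0.22, SE 0.08). RPL36A had only 22 to 94 counts per library, and its call and that of RPL22 were each lost in 6 of 8 fits without 1 library. The cytosolic median was 0.01. The 13 mitochondrial genes added MRPS31, MRPL44, MRPL32 and MRPS10 to those above and lacked MRPL27, and the set's median was 0.12. MRPS18C (0.50, SE 0.12), MRPS2 (0.35, SE 0.08), MRPS30 (0.35, SE 0.07) and MRPL15 (0.29, SE 0.07) kept their calls under each alternative run, as did RPL22L1 and RPL7L1. The mitochondrial count was 5 without Mock control replicate 2, 6 without Mock TGF-β replicate 2 and 8 without HSF2oe control replicate 2. The cytosolic count was 3 without Mock control replicate 2 or without HSF2oe TGF-β replicate 2.

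**Figure D4:**
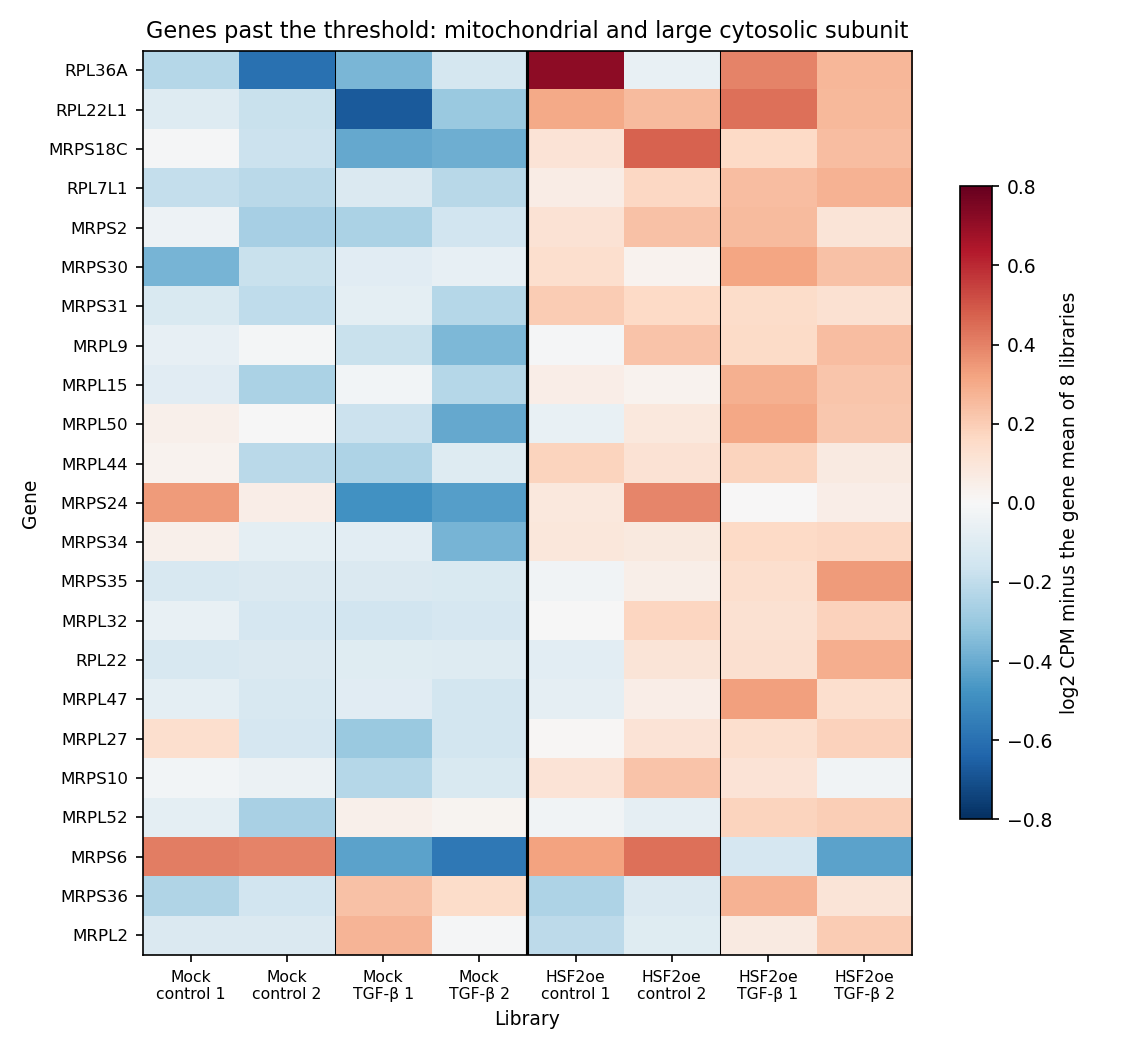
Members of the mitochondrial ribosome and of the large cytosolic subunit past the threshold in any comparison (vertical axis) by library (horizontal axis), as log2 CPM minus the gene's mean of 8 libraries. Thin lines separate media and the thick line separates plasmids. RPL22L1 is low in Mock TGF-β (10.6 and 13.8 CPM) and high in the 4 HSF2oe libraries, and MRPS6 is low in the TGF-β libraries of both plasmids.

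Whether the response to TGF-β differed between plasmids was tested directly as an interaction. No member passed, and no gene of the 16008 did (0 by edgeR, with 977 at an unadjusted p under 0.05). The smallest p among members was that of MRPL50, with a difference of 0.56 (SE 0.20, edgeR adjusted p 0.729). MRPL50 had 11.0 and 10.7 CPM in the controls and 9.51 and 8.07 CPM under TGF-β in Mock cells, and 10.3 and 11.4 CPM in the controls and 13.3 and 12.5 CPM under TGF-β in HSF2oe cells. MRPS6 differed by 0.26 (SE 0.19, edgeR adjusted p 0.892) and RPL22L1 by 0.40 (SE 0.19, edgeR adjusted p 0.829). The 95% interval of the difference lay within 1.5-fold for 76 of 82 cytosolic and 55 of 77 mitochondrial genes. The HSF2oe changes with and without TGF-β were thus not shown to differ for any single gene, since this interaction is also their difference.

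The paralogues were set against their partners per length. RPL22L1 stood at 1.43 ± 0.284 times RPL22 (SD, n = 8), from 0.941 in Mock TGF-β replicate 1 to 1.83 in HSF2oe control replicate 1. This ratio depends on the exonic lengths used. In CPM, not divided by length, the mean of RPL22L1 lay below that of RPL22 in all 4 groups. It was 15.3 against 25.1 CPM in Mock control and 21.6 against 31.7 CPM in HSF2oe TGF-β. RPL39L, a paralogue best known from testis and tumour cells, stood at 2.02 ± 0.261 times RPL39 (SD, n = 8). The partner RPL39 had 4.89% of its exonic bases shared and 18 pseudogenes, whose part in this ratio was not tested. RPL26L1 stood at 0.182 ± 0.0289 times RPL26, RPL7L1 at 0.154 ± 0.0236 times RPL7, and RPS27L, a p53-induced paralogue, at 0.0232 ± 0.00143 times RPS27 (SD, n = 8 each). RPL3L stood at 0.000272 times RPL3, on 1 to 6 counts. The RPL7L1 ratio was 0.124 to 0.138 in the 4 Mock libraries and 0.171 to 0.18 in the 4 HSF2oe libraries. RPL7 itself changed by -0.03 in control medium and -0.04 with TGF-β. RPL26L1 moved the other way, from 0.192 to 0.217 in Mock to 0.124 to 0.18 in HSF2oe, and its averaged change of -0.21 (SE 0.10, edgeR adjusted p 0.128) did not pass. RPL39L (-0.17), RPS27L (0.02), RPL39 (0.01), RPL26 (0.13), RPS27 (0.05), RPL3 (0.06) and RPL10 (-0.01) did not pass either in that comparison.

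The genes that assemble ribosomes were taken next. Averaged over both media, 39 of 46 ribosome biogenesis factors rose with HSF2oe (median 0.33) and none fell, against 15.2% of all genes called higher. The count was 26 to 37 in the 8 fits without 1 library. The list was drawn up with earlier results of these data known. NOP58, a core protein of box C/D snoRNPs, had 61.3 to 68.8 CPM in the 4 Mock libraries and 89.7 to 102 CPM in the 4 HSF2oe libraries. It rose by 0.57 (SE 0.07, edgeR adjusted p 8.47e-05). RRS1, an assembly factor of the large subunit that brings in 5S RNA with RPL5 and RPL11, had 57.8 to 76.9 CPM in Mock and 99.3 to 102 CPM in HSF2oe libraries and rose by 0.61 (SE 0.07, edgeR adjusted p 5.53e-05). TAF1D, a subunit of the RNA polymerase I factor SL1, had 41.5 to 55.4 CPM in Mock and 73.7 to 97.6 CPM in HSF2oe libraries and rose by 0.76 (SE 0.10, edgeR adjusted p 9.71e-05). In none of these did the plasmid groups overlap. Of all genes, 9.6% were called higher in HSF2oe over Mock with TGF-β and 4.88% in control medium. With TGF-β 30 of 46 rose, a count that was 12 without Mock TGF-β replicate 2 and 16 without HSF2oe TGF-β replicate 1. In control medium 12 of 46 rose, with 1 to 5 when a control library of either plasmid was left out.

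Of the mitochondrial translation factors, 13 of 26 tested rose with HSF2oe averaged over both media (median 0.27) and none fell, against 15.2% of all genes called higher and 17.3% called lower. The count was 10 to 12 without 1 library. MRM3, a methyltransferase of mitochondrial ribosomal RNA, rose by 0.60 in control medium (edgeR adjusted p 0.0137) and 0.65 with TGF-β (0.00645). MTERF3, which acts in mitochondrial ribosome assembly, rose by 0.41 in control medium (edgeR adjusted p 0.0261). These calls rest on single libraries: no gene of the list passed in control medium without Mock control replicate 2 or without HSF2oe control replicate 1, nor with TGF-β without HSF2oe TGF-β replicate 1. Over both media, 4 of 17 mitochondrial aminoacyl-tRNA synthetases rose (median 0.12). Of 34 cytosolic translation factors 5 rose and 1 fell (median 0.09). The 5 rises of 34 are near the share of all genes called higher. EIF2S1, the alpha subunit of initiation factor 2, was higher in HSF2oe than in Mock cells by 0.38 in TGF-β medium (edgeR adjusted p 0.0122). TGF-β averaged over both plasmids changed 4 biogenesis factors (all higher), 2 mitochondrial translation factors (both lower), 1 cytosolic translation factor (higher) and no mitochondrial synthetase (5 at an unadjusted p under 0.05), against 20.2% of all genes.

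**Figure D5:**
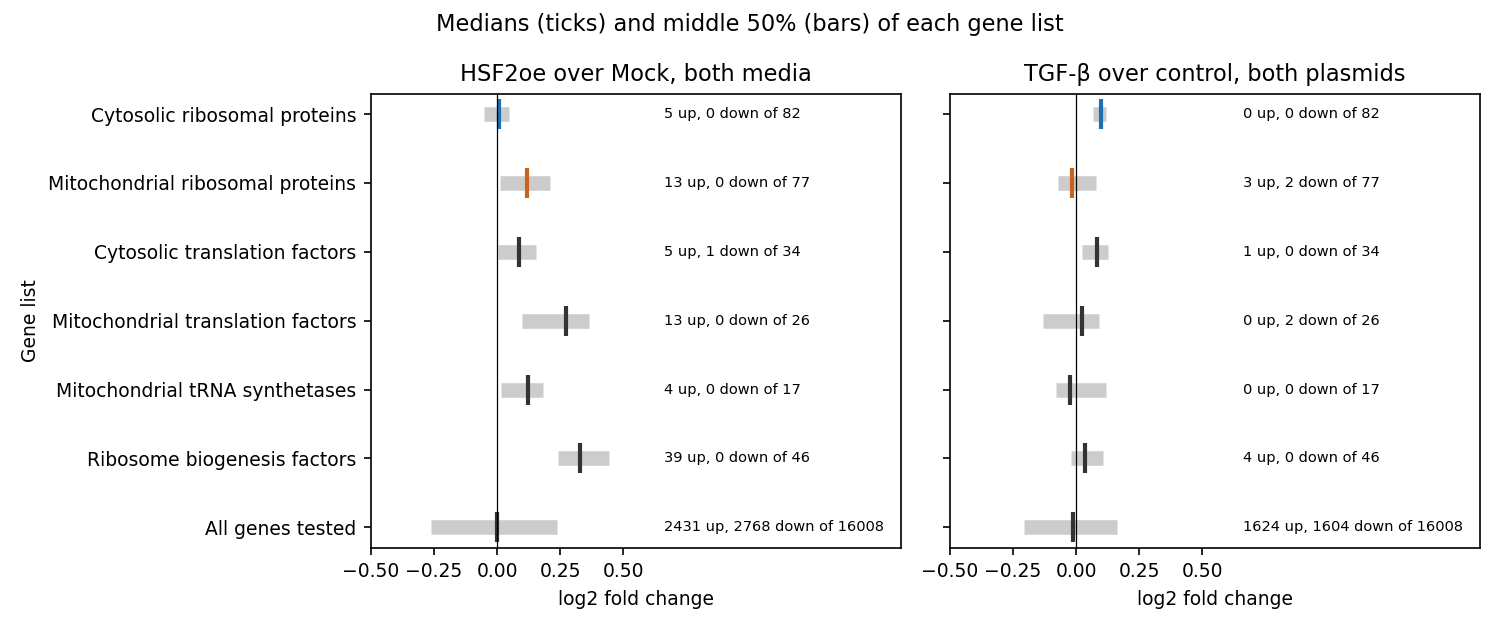
Median (tick) and middle 50% (bar) of the log2 fold changes (horizontal axis) of 6 gene lists and of all genes tested (vertical axis) for HSF2oe over Mock and TGF-β over control, each averaged over the other factor, with the number of genes past the threshold. Ribosome biogenesis factors have a median of 0.33 with HSF2oe, cytosolic ribosomal proteins 0.01.

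Among regulators of mitochondrial biogenesis, 5 of 10 tested rose with HSF2oe on average and none fell, against 15.2% of all genes called higher and 17.3% called lower. TFAM, which packages and transcribes mitochondrial DNA, had 18.0 and 16.4 CPM for Mock control, 10.4 and 12.1 CPM for Mock TGF-β, 20.2 and 20.4 CPM for HSF2oe control and 19.7 and 18.3 CPM for HSF2oe TGF-β. Its 2 Mock TGF-β libraries were the lowest. TFAM fell by 0.60 with TGF-β in Mock cells (SE 0.13, edgeR adjusted p 0.00581) and was higher in HSF2oe with TGF-β by 0.75 (SE 0.13, edgeR adjusted p 0.00138). NRF1, a factor that drives many nuclear genes of mitochondria, had 15.2 and 15.2 CPM, 12.2 and 9.79 CPM, 18.8 and 17.7 CPM, and 17.6 and 17.8 CPM in the same order. NRF1 fell by 0.47 with TGF-β in Mock cells (edgeR adjusted p 0.0306) and rose by 0.70 with HSF2oe in TGF-β medium (0.00273). A further list held 20 tested genes, namely regulators of mTORC1 and of TOP mRNAs together with MYC and its network (MAX, MNT and MXD genes). Of these, 3 rose and 4 fell with HSF2oe on average, close to those shares of all genes. MYC, a driver of ribosome gene transcription, rose by 0.70 (SE 0.09, edgeR adjusted p 8.30e-05), MXD4, a MYC antagonist, fell by 0.79 (SE 0.07, edgeR adjusted p 6.99e-06), and EIF4EBP1, a translation repressor, fell by 0.41 (SE 0.08, edgeR adjusted p 0.00247). LARP1, MTOR and RPS6KB1 had values of -0.02, -0.06 and 0.05. In control medium MXD1, MXD3 and MNT had HSF2oe changes of 0.33, -0.29 and -0.27, none past the threshold. In TGF-β medium the HSF2oe change of MNT was -0.37 (SE 0.11, edgeR adjusted p 0.0276), which passed. Not every called gene of the list is named here.

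The 13 mRNAs that mitochondrial ribosomes translate are encoded by the mitochondrial genome. MT-ND6 had 774 and 955 CPM for Mock control, 1302 and 1217 CPM for Mock TGF-β, 829 and 741 CPM for HSF2oe control and 993 and 645 CPM for HSF2oe TGF-β. The HSF2oe TGF-β replicates lay furthest apart. In Mock cells all 13 had positive values with TGF-β (median 0.41). MT-ND6 alone passed the threshold, with a rise of 0.54 (SE 0.17, edgeR adjusted p 0.0482), where 7.32% of all genes were called higher. MT-ND5 had 0.51 (edgeR adjusted p 0.0693). Strand was not used in counting, and the part of reads from the opposite strand in the MT-ND6 values was not tested. In HSF2oe cells none passed (0 at an unadjusted p under 0.05), with a median of 0.04. With TGF-β, MT-ND6 fell by 0.62 (SE 0.17, edgeR adjusted p 0.0193) and MT-ND5 by 0.53 (SE 0.17, edgeR adjusted p 0.0436) in HSF2oe against Mock cells, where mitochondrial ribosomal protein genes had a positive median.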

How the data were processed

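Counts per gene were deposited for 60708 genes in 8 libraries. Per the file headers, the authors counted paired reads with featureCounts 2.0.1 on GENCODE 38 (GRCh38), with no strand, multi-mapping or multi-overlap option. Per the submitters' processing notes, STAR 2.7.9a, Subread 2.0.1 and edgeR 3.34.1 were used. The deposited log2 CPM values (13169 genes, 159 of them members) served as an alternative. Groups follow the sample titles and the design text, which the treatment field contradicts.

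Counts were fitted with edgeR 4.0.16 (R 4.3.3, limma 3.58.1): filterByExpr kept 16008 genes, TMM factors scaled libraries, and a quasi-likelihood model with 1 mean per group used all 8 libraries (common biological coefficient of variation 9.91%, 4 residual and 9.21 prior degrees of freedom). P-values, all 2-sided, were adjusted by Benjamini-Hochberg over all 16008 genes, with 0.05 as threshold. SE is the absolute log2 fold change over the square root of F. The fit was tested on simulated counts. A limit of 3 counts for a count of 0 covers counting error only, 0.0874 to 0.172 CPM.

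Between the libraries of each group, chi-square per degree of freedom was 12.5 to 26.8, far above sampling noise. Same-numbered replicates correlated by 0.0498 to 0.163 across groups, so the numbers were not taken as pairs. These correlations were low but all positive, and whether same-numbered replicates share an effect was not tested. The members and lists were chosen with earlier results of these data known. Genes were named by rule: per comparison and set at most 6 called members in each direction, largest first, the 3 highest and lowest levels per set, a fixed list of paralogues and well-known members, and up to 3 genes per further list. Some genes that the rule covers are not reported here, though counts and medians include them. Other genes were named as listed calls or by pathway role after their values were seen. The alternatives were library totals, TMM factors without members, DESeq2 1.42.0, no filter, at least 10 counts everywhere, only the libraries compared, limma-trend on the deposited values, added pseudogene counts, a replicate block and each library left out. Promoters are RefSeq's.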

Additional observations from a re-analysis of the deposited data

How the results depend on the processing

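No call of a member turned its direction: of 674 values for 41 calls under the alternatives, 147 missed the threshold and 0 reversed, and 10 calls passed under each alternative run. With library totals alone, the counts of called cytosolic and mitochondrial genes were 6 and 36 (TGF-β, Mock), 2 mitochondrial (TGF-β, HSF2oe), 2 and 3 (HSF2oe, control), 17 and 43 (HSF2oe with TGF-β), 5 and 34 (TGF-β averaged) and 17 and 44 (HSF2oe averaged); the medians of all genes moved by -0.27, -0.17, 0.09, 0.19, -0.22 and 0.14 in the same order. DESeq2 gave 0 mitochondrial calls for HSF2oe in control medium, and 1 and 3 for TGF-β averaged. Without a filter the counts were 3 and 0 for HSF2oe in control medium and 3 mitochondrial for TGF-β averaged, and with at least 10 counts everywhere 2 cytosolic for HSF2oe in control medium. With a replicate block, whose numbers were not taken as pairs in the main fit, they were 3 and 4 (HSF2oe, control) and 5 and 16 (HSF2oe with TGF-β). The same block gave 7 cytosolic (TGF-β averaged) and 22 mitochondrial (HSF2oe averaged). The shares of all genes called under these alternatives are not reported here, so the counts cannot be set against them. The causes were not tested.

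Leaving out each library in turn gave 0 cytosolic and 1 to 2 mitochondrial calls (TGF-β, Mock), 0 and 0 to 1 (TGF-β, HSF2oe), 0 to 1 and 0 to 1 (HSF2oe, control), 1 to 3 and 1 to 10 (HSF2oe with TGF-β), 0 to 1 and 2 to 4 (TGF-β averaged) and 3 to 5 and 5 to 13 (HSF2oe averaged); a lone library is then assumed to vary like the other groups. With 2 libraries per group, the median SE of a member was 0.105 to 0.117 in a single comparison.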
